A study of Mus musculus with 2 samples.

Results

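Acta2, Tagln, Cnn1, Myl9, Mylk and Myh11 encode proteins of the smooth muscle contractile apparatus, and they were followed through every cell group of the mouse heart at E11.5, a mid-gestation stage counted in days after mating. These 6 genes were chosen by name, from 22401 features in the count matrices, and all 6 were found there by their Ensembl gene ID. Whole hearts were dissociated with the enzyme TrypLE and sequenced as single cells in 2 droplet libraries, 1 per genotype. The control embryos were Hand2fx/+ R26RmTmG/wt, with no Cre. The other embryos, called H2CKO, were Nfatc1Cre/wt Hand2fx/fx R26RmTmG/wt, so that both Hand2 alleles could be removed where Nfatc1Cre is active. Both groups carried at least 1 floxed Hand2 allele and 1 copy of the mTmG reporter, which switches from membrane Tomato to membrane GFP once Cre has acted. Nfatc1Cre is a driver used for the endocardium, the inner endothelium of the chambers, and for cells descended from it. The labels do not give the number of embryos behind a library.

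Smooth muscle shortens when myosin slides along filaments of smooth muscle actin. Calcium bound to calmodulin switches on myosin light chain kinase, which phosphorylates the regulatory light chain of myosin. Actin-binding proteins such as transgelin and calponin decorate the filaments. The embryonic heart is known to use several of these genes outside smooth muscle: early cardiomyocytes transiently make smooth muscle actin and transgelin, and mesenchymal and epicardial cells can do so as they become motile. Myocardin, with serum response factor, is a textbook activator of the set, binding through the CArG box, an A/T-rich core between CC and GG.

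All gene positions are from the GENCODE annotation of the mouse genome GRCm38. Acta2, smooth muscle alpha actin, lies at chr19:34241090-34255590 on the minus strand with up to 9 exons. Tagln, which encodes transgelin (SM22 alpha), lies at chr9:45929619-45936058 on the minus strand with up to 5 exons, and it overlaps Pcsk7 and Gm48529 on the other strand. Cnn1, calponin 1, lies at chr9:22099216-22109630 on the plus strand with up to 7 exons. Myl9, a regulatory myosin light chain, lies at chr2:156775420-156781658 on the plus strand with up to 4 exons. Mylk, myosin light chain kinase, is a long gene at chr16:34745210-35002420 on the plus strand with up to 32 exons and overlaps 3 genes on the other strand. Myh11, smooth muscle myosin heavy chain, lies at chr16:14194535-14291372 on the minus strand with up to 42 exons. Whether the authors' counting used strand is not given in the sources used here, so reads of an overlapping partner could be counted for Tagln or Mylk. A 3′ assay also does not separate the long and short products of Mylk.

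The CArG box was searched in the 250 bases before the RefSeq start of each gene (RefSeq, GRCm38.p6), with exact boxes and boxes with up to 1 mismatch in the A/T core. The box is its own reverse complement, so 1 search covers both strands. RefSeq windows were at hand for 4 of the 6 genes (Acta2, Cnn1, Myl9 and Mylk). The sites of Acta2 and Myl9 are shown because their levels were closely correlated across cell groups. They are joined by 1 pair from Actc1, the cardiac actin gene, whose levels were also correlated with those of Myl9. Capitals mark the box, and distances run from its first base to the start.
Acta2, 84 bases before the start, 1 mismatch, chr19:34255438-34255467, minus strand: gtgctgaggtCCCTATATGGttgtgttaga
Acta2, 34 bases before the start, 1 mismatch, chr19:34255388-34255417, minus strand: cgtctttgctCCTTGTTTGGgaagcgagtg
Myl9, 161 bases before the start, exact, chr2:156775293-156775322, plus strand: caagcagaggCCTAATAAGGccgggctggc
Myl9, 99 bases before the start, 1 mismatch, chr2:156775355-156775384, plus strand: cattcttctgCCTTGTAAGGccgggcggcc
Actc1, 175 bases before the start, 1 mismatch, chr2:114053031-114053060, minus strand: ctccctagctCCCTATATGGccattgctct
Actc1, 47 bases before the start, exact, chr2:114052903-114052932, minus strand: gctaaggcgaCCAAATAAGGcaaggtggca
The upstream Acta2 site and the upstream Actc1 site hold the same box within different flanks. The Actc1 window held 2 further boxes with 1 mismatch. No box was found in the windows of Cnn1 and Mylk. The Mylk window, chr16:34784700-34784949, lies inside the span of the gene given above, and other starts of Mylk were not searched. Among 32851 windows of the same length in RefSeq, 1.47% held an exact box, 8.59% held a box with up to 1 mismatch and 0.67% held at least 2 of these. A match is a description of the letters and shows no binding.

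The control matrix held 14114 barcodes with 195825720 unique molecular identifiers (UMIs, each counting 1 captured RNA molecule), and the H2CKO matrix 13885 barcodes with 201477256 UMIs. After filters on genes, mitochondrial UMIs and doublets, 9293 control and 11466 H2CKO cells were used, with a median of 16450 and 13410 UMIs. The libraries shared 57 barcodes, 30 of them among the cells used. The labels were checked in endothelial-like cells, where Hand2 was at 230.3 CPM (UMIs of a gene per 1000000 UMIs of the cell group) in the control and 11.7 CPM in H2CKO, and GFP at 16.9 and 1263 CPM. In cardiomyocyte-like cells GFP was at 10.2 and 8.85 CPM. With 1 library per genotype there is no replicate check and no test. Intervals are 95% exact Poisson intervals for levels, exact conditional for ratios and exact binomial for shares. They cover counting error only.

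Cells were grouped without using the 6 genes or the related lists below, and named by markers with the ending "-like". Cardiomyocyte-like cells numbered 2342 in the control and 3722 in H2CKO. Within them, subclusters were named compact ventricular-like (1168 and 2511 cells), trabecular-like (320 and 477), outflow tract-like (333 and 448), atrioventricular canal-like (93 and 162) and atrial-like (100 and 3). A shallow subcluster of 328 and 121 cells got no subset name. Mesenchymal-like cells (1569 and 994) fell into a Hapln1-rich part (916 and 607) and a Tgfbi-rich part (653 and 387), a split made after seeing the clusters. Epicardial-like cells numbered 828 and 294, and endothelial-like cells 390 and 699. All 12 cardiomyocyte markers were detected in cardiomyocyte-like cells of both libraries, and their summed level was 56540 and 51850 CPM. Erythroid-like cells (2746 and 4940), which should lack the contractile genes, served to show the level given by free RNA.

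Acta2, Myl9, Tagln and Cnn1 were abundant in these hearts, while Mylk was rare and Myh11 almost undetected. Acta2 had 198832 UMIs in the control and 175659 in H2CKO, in 76.6% and 69.6% of cells. Myl9 had 136258 and 130840 UMIs, Tagln 134210 and 76730, and Cnn1 29747 and 26756. Mylk had 1064 and 233 UMIs, in 6.63% and 1.69% of cells. For Myh11 there were 33 UMIs in 26 control cells and 12 UMIs in 7 H2CKO cells. The heart at this stage thus held RNA of the actin, the light chain and the actin-binding proteins at high levels, with next to none of the smooth muscle myosin heavy chain. Of the Myh11 UMIs, 17 of the control's were in compact ventricular-like cardiomyocytes, and 6 of those in H2CKO were in 1 cell of a subcluster that mixed cardiomyocyte and erythroid markers. No order across groups was read for Myh11, which had at most 3 UMIs in any other named group of either library.

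In erythroid-like cells Acta2 was at 52.4 CPM in the control and 52.7 CPM in H2CKO. There, Tagln was at 25.4 and 17.6 CPM, Myl9 at 37.8 and 29.2 CPM, Cnn1 at 8.79 and 6.73 CPM, and Mylk at 0.174 and 0.103 CPM. As much as 61.9% of control erythroid-like cells held an Acta2 UMI, at a median of 18360 UMIs per cell, so a single UMI of Acta2 does not mark an expressing cell in these libraries. Levels near these values are not read as expression below.

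The 4 abundant genes were highest in cardiomyocyte subsets in the control, and 2 of them peaked in the outflow tract-like cells in both libraries. Acta2 was at 3709 CPM (3668 to 3749) in control outflow tract-like cardiomyocytes, against 2645 CPM in compact, 2583 CPM in atrial-like, 2196 CPM in trabecular and 1941 CPM in atrioventricular canal-like cells. In H2CKO it was at 4190 CPM (4145 to 4236) in outflow tract-like, 2265 CPM in atrioventricular canal-like, 1913 CPM in trabecular and 1821 CPM in compact cells. The shallow cardiomyocyte-like subcluster had 2988 CPM in the control, second to outflow tract-like cells, and 1821 CPM in H2CKO. The outflow tract-like cells therefore led in both libraries, while the order of the other subsets differed between libraries. Cnn1 showed the same leader, with 556.6 and 473.5 CPM in outflow tract-like cells, and its other control subsets lay between 315.7 CPM (trabecular) and 433.6 CPM (atrial-like). Control trabecular and atrioventricular canal-like cells (321.5 CPM) had overlapping Cnn1 intervals.

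Myl9 had another order. Its highest control level, 3906 CPM (3820 to 3993), was in atrial-like cells, followed by atrioventricular canal-like cells at 2720 CPM and outflow tract-like cells at 2249 CPM. In H2CKO, where only 3 atrial-like cells were found, atrioventricular canal-like cells led with 2523 CPM and outflow tract-like cells followed with 2227 CPM. Compact and trabecular cells had 1668 and 1682 CPM in the control, a pair with overlapping intervals.

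Tagln was shared between muscle and mesenchyme. Control outflow tract-like cardiomyocytes had 2226 CPM (2195 to 2258) and Tgfbi-rich mesenchymal-like cells 1855 CPM (1828 to 1883), above compact (1359 CPM), atrial-like (1173 CPM), trabecular (1154 CPM) and atrioventricular canal-like (832 CPM) cardiomyocytes. In H2CKO the first 2 places were exchanged: Tgfbi-rich mesenchymal-like cells had 2060 CPM (2016 to 2105) and outflow tract-like cells 1614 CPM (1586 to 1642). Counted over the 6 genes, 4 had their highest level in a cardiomyocyte subset in the control, among 17 cell groups with at least 50 cells, 6 of them such subsets, and 3 in H2CKO, among 16 groups with 5 such subsets. The shallow cardiomyocyte-like subcluster is counted with the subsets here. Of all genes that reached 20 CPM and 20 UMIs in their highest group, 27.3% peaked in a cardiomyocyte subset in the control and 24.4% in H2CKO. Mylk peaked elsewhere, and Myh11 was too rare to place.

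Outside cardiomyocytes, the Tgfbi-rich part of the mesenchyme carried several times more of each abundant gene than the Hapln1-rich part. In the control, Tagln was at 1855 against 359.4 CPM, Acta2 at 468.8 against 117.8 CPM, Myl9 at 310 against 87.8 CPM and Cnn1 at 167 against 36.9 CPM. Tagln UMIs were found in 100% of control Tgfbi-rich cells and in 79.9% of Hapln1-rich cells. In the mesenchyme, Tagln was thus the most frequent of the 4 transcripts by UMIs, whereas Acta2 exceeded it in every named cardiomyocyte subset. Epicardial-like cells had 466.9 CPM of Tagln and 175.1 CPM of Acta2 in the control. White blood cell-like cells (76 and 113) had 97.97 and 47.6 CPM of Tagln, 147.3 and 89.4 CPM of Acta2, 148.7 and 76.0 CPM of Myl9 and 27.5 and 10.7 CPM of Cnn1. The Cnn1 value, from 39 and 20 UMIs, was past the 2-fold line used below, as were 9.55% of all genes compared in these cells, and the other 3 were not. Summed cardiomyocyte markers in them were at 3888 and 1456 CPM, and their part was not tested.

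Mylk differed from the other genes in where it was found. Its highest level was in epicardial-like cells in both libraries, where the control had 51.1 CPM (47.3 to 55.1) and H2CKO 24.2 CPM (19.0 to 30.3). It was at 4.97 and 2.16 CPM in outflow tract-like cardiomyocytes, 1.75 and 0.908 CPM in compact cells and 1.06 and 0.502 CPM in Tgfbi-rich mesenchyme. A Mylk UMI was present in 40.2% of control epicardial-like cells (median 13760 UMIs per cell) and 17.0% of those of H2CKO (median 9914), against 0.328% and 0.142% of erythroid-like cells. After thinning to 5000 UMIs, with 14 control and 25 H2CKO cells left out as shallower, the epicardial-like shares were 20.02% and 11.52%. White blood cell-like cells held 19 Mylk UMIs in the control and 4 in H2CKO. Endothelial-like cells came after epicardial-like cells in H2CKO, at 4.89 CPM of Mylk (3.04 CPM in the control). Its other levels were 3.82 and 1.99 CPM in atrioventricular canal-like, 0.832 and 1.04 CPM in trabecular and 1.57 and 0.352 CPM in Hapln1-rich cells, and 3.97 CPM in control atrial-like cells.

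**Figure D1:**
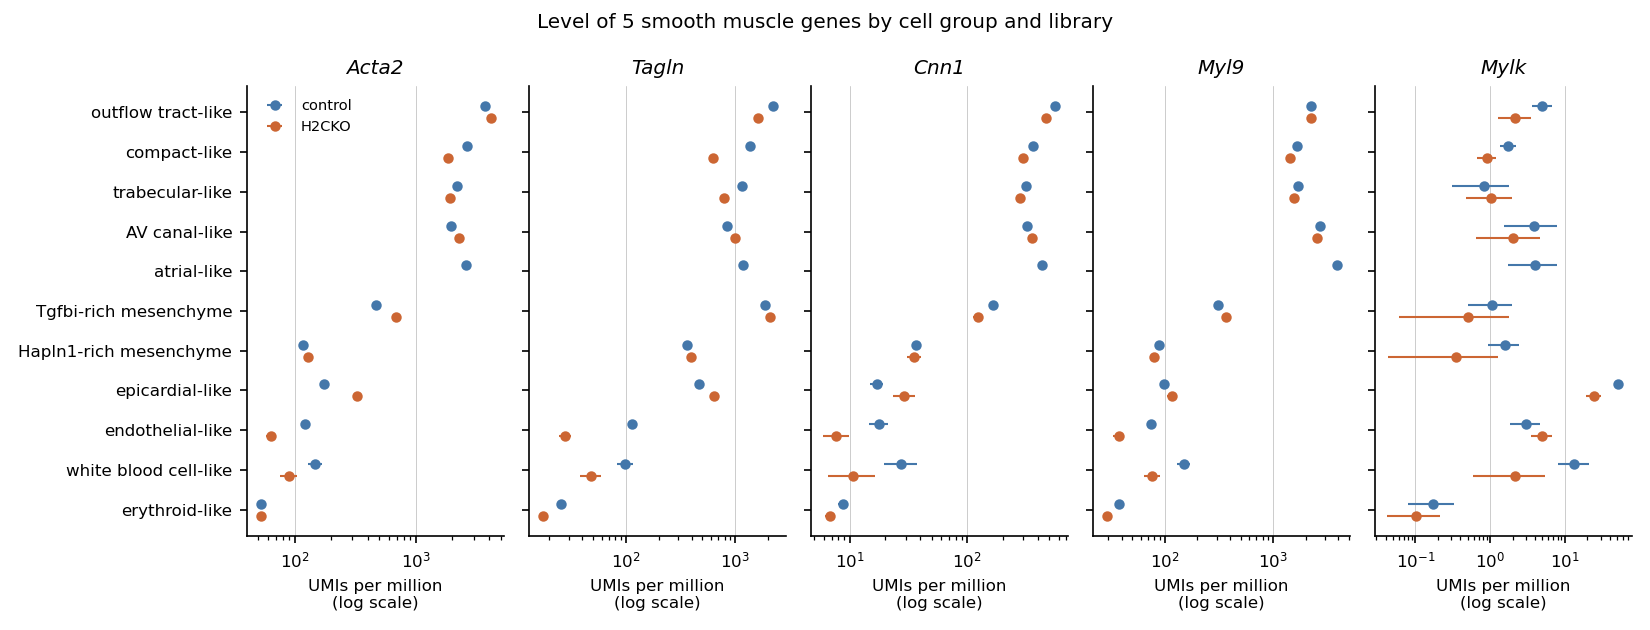
Level of Acta2, Tagln, Cnn1, Myl9 and Mylk (CPM, log scale) in 11 cell groups of the control (blue) and H2CKO (orange) library, with 95% Poisson intervals as lines, hidden behind the point where short. Acta2, Cnn1 and Myl9 sit far right in all cardiomyocyte subsets, Tagln is also high in Tgfbi-rich mesenchyme (1855 and 2060), and Mylk is highest in epicardial-like cells (51.1 and 24.2); atrial-like cells are shown for the control only.

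The genotype comparison asks which transcripts differ across the heart when Hand2 is removed with Nfatc1Cre. Ratios are H2CKO over control, and log2 ratios were computed on CPM plus 5. Genes with at least 20 CPM and 20 UMIs in the higher library were compared, and past 2-fold means a log2 ratio at or beyond 1 in either direction. Acta2, Tagln, Cnn1 and Myl9 reached these minimums in cardiomyocyte-like cells, and Mylk and Myh11 did not. None of the 4 was past 2-fold in the whole class, against 0.716% of all 5588 genes compared. All 4 were lower in H2CKO, but so were 65.9% of all genes compared, whose median log2 ratio was -0.15.

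Tagln stood lowest of the 4. In cardiomyocyte-like cells it was at 1441 CPM in the control and 766.5 CPM in H2CKO, a ratio of 0.532 (0.526 to 0.538) and rank 52 from the lowest among 5588 genes. Under a stricter cell filter, 1500 genes or more and 5% mitochondrial UMIs or less, 1483 control and 313 H2CKO cells of the class were left and the log2 ratio was -0.312 in place of -0.907. Acta2 was at 2737 and 2103 CPM (ratio 0.768), Cnn1 at 389.9 and 317.9 CPM (0.815) and Myl9 at 1887 and 1579 CPM (0.837). Those 3 log2 ratios, -0.38, -0.29 and -0.26, lay much nearer to the median of all genes.

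Compact ventricular-like cells, named after the outer layer of the ventricular wall, showed the largest Tagln difference of the named cardiomyocyte subsets. The control level of Tagln was 1359 CPM (1347 to 1372), and that of H2CKO was 629.2 CPM (622.5 to 636). The ratio was 0.463 (0.456 to 0.469), a log2 ratio of -1.11 and rank 22 from the lowest of 5606 genes, of which 1.05% were past 2-fold. Acta2 was at 2645 and 1821 CPM, a ratio of 0.688 (0.682 to 0.695). Cnn1 was at 365.3 and 299.7 CPM and Myl9 at 1668 and 1440 CPM. Of the 4 genes, Tagln was thus the 1 past 2-fold in compact cells. The name is weak: summed compact markers were at 8913 and 13120 CPM here and 9468 and 13540 CPM in trabecular-like cells, while summed trabecular markers were at 1478 and 2474 CPM here and 4260 and 9525 CPM there. The summed level of 12 mesenchymal markers in these cells, all of them detected, was 524.3 CPM in the control and 322.2 CPM in H2CKO, and its part in the Tagln ratio was not tested. With the stricter filter (502 and 86 compact cells) the log2 ratio was -0.865, and relative to the median gene it was -0.935.

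Single cells showed the same difference across the range of levels. With compact cells thinned to 5000 UMIs (15 control and 25 H2CKO cells below that were left out), the median cell held 5 Tagln UMIs in the control and 2 in H2CKO. No Tagln UMI was left in 6.42% of control and 24.9% of H2CKO cells, against 88.2% and 90.7% of erythroid-like cells. Cells with 10 or more Tagln UMIs made up 23.9% of the control and 6.96% of H2CKO. For Acta2 the median compact cell held 12 and 7 UMIs, for Myl9 8 and 6, and for Cnn1 1 and 1. The control value was thus not carried by a few cells: 227 of 1168 control cells held 50% of the Tagln UMIs, and 342 of 2511 did so in H2CKO.

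**Figure D2:**
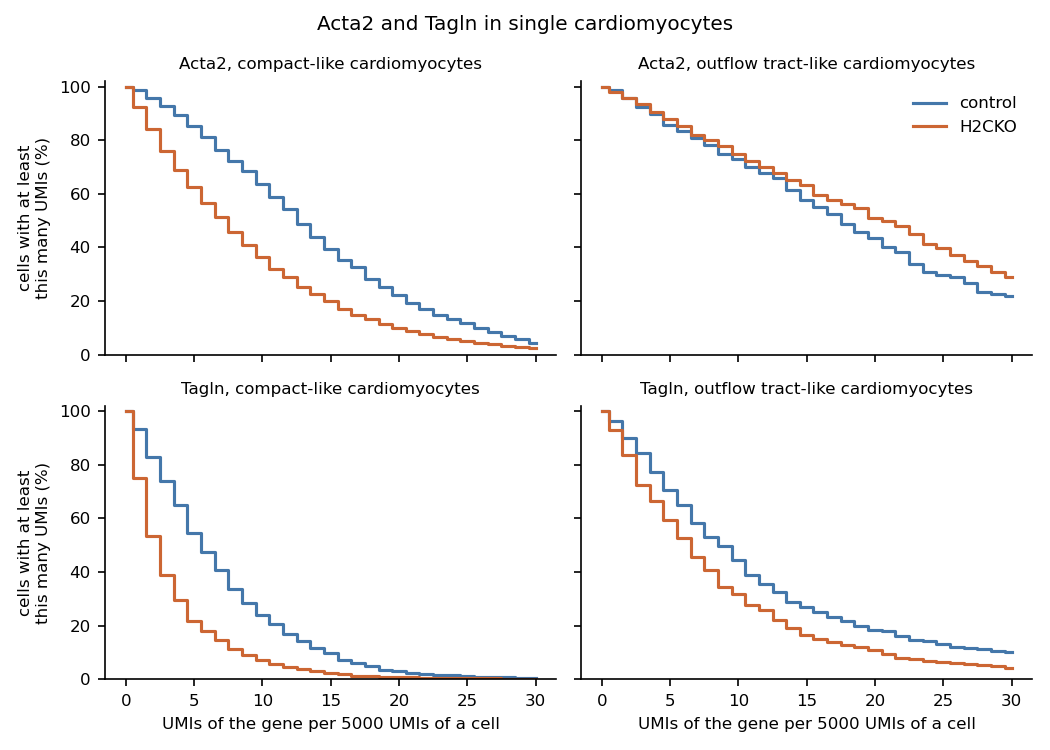
Share of compact-like (left) and outflow tract-like (right) cardiomyocytes with at least a given number of Acta2 (top) or Tagln (bottom) UMIs after thinning each cell to 5000 UMIs, for the control (blue) and H2CKO (orange). In compact-like cells the H2CKO curve lies below the control for both genes, with 36.5% against 63.6% of cells at 10 or more Acta2 UMIs, while in outflow tract-like cells the H2CKO curve for Acta2 lies slightly above the control (51.2% against 43.4% of cells at 20 or more).

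The 4 subclusters that make up the compact-like cells each had less Tagln in H2CKO. Their control and H2CKO levels were 1322 and 614.8 CPM in the largest, 1401 and 699.4 CPM and 1458 and 647.4 CPM in the next 2, and 833.1 and 522.8 CPM in the subcluster that was mostly H2CKO (40 and 328 cells). That last subcluster also had the lowest Acta2 of the compact-like cells, at 1365 and 952.1 CPM. Levels were compared over the 8 cardiomyocyte subclusters with a subset name and at least 30 cells in each library. Tagln was lower in H2CKO in 7, Cnn1 in 7, Myl9 in 7 and Acta2 in 5. Of all genes compared, 66.8% were lower in compact, 65.8% in trabecular, 64.1% in outflow tract-like and 63.5% in atrioventricular canal-like cells. The median log2 ratio over the 8 was -0.62 for Tagln, -0.34 for Acta2, -0.23 for Cnn1 and -0.14 for Myl9. All genes in the cardiomyocyte-like class had a median of -0.15. The subclusters share 2 libraries and are not replicates. Tagln log2 ratios among them ran from -1.17 to 0.26. In the shallow subcluster, with no subset name, Tagln was at 1334 and 646.3 CPM (log2 ratio -1.04, past 2-fold as were 6.7% of all genes there), and the log2 ratios of Acta2 (-0.71), Cnn1 (-0.73) and Myl9 (-0.50) lay below those of the 8.

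Trabecular-like cells, the inner ridges of the ventricle, had smaller differences. Tagln was at 1154 and 778.8 CPM, a ratio of 0.675 (0.653 to 0.697). Acta2 was at 2196 and 1913 CPM, Cnn1 at 315.7 and 282.9 CPM and Myl9 at 1682 and 1566 CPM. None of the 4 was past 2-fold, and 0.738% of all genes were. Under the stricter filter (418 and 99 cells) the log2 ratio of Acta2 was -1.15 in place of -0.199. Summed mesenchymal markers were at 415.2 and 296 CPM and summed white blood cell markers at 10.95 and 80.4 CPM, and their part was not tested.

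In outflow tract-like cells, the muscle at the arterial pole, Acta2 and Tagln went in opposite directions. Acta2 was at 3709 CPM in the control and 4190 CPM in H2CKO, a ratio of 1.13 (1.11 to 1.15). Tagln was at 2226 and 1614 CPM, a ratio of 0.725 (0.709 to 0.742), and Cnn1 at 556.6 and 473.5 CPM (0.851). Myl9, at 2249 and 2227 CPM, had a ratio of 0.99 with an interval that includes 1 (0.97 to 1.01). None of the 4 was past 2-fold, against 1.77% of all genes. The subcluster with the strongest outflow markers held 4662 and 5585 CPM of Acta2 and 2912 and 2008 CPM of Tagln, and the other outflow tract-like subcluster 3048 and 3110 CPM and 1751 and 1309 CPM. The summed mesenchymal markers in outflow tract-like cells were at 967.4 and 577.5 CPM, and their part was not tested. Under the stricter cell filter (312 and 96 cells) the Tagln log2 ratio turned from -0.463 to 0.362, so its direction in these cells depended on which cells were kept.

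Atrioventricular canal-like cells, the slow-conducting muscle between atria and ventricles, had more Tagln in H2CKO when summed over cells, unlike compact, trabecular and outflow tract-like cells. It was at 832 and 994.3 CPM, a ratio of 1.20 (1.12 to 1.27). The median cell thinned to 5000 UMIs held 2 Tagln UMIs in each library, cells with none made up 18.6% and 22.6%, and 5 cells held 26.8% and 23.5% of the UMIs. The typical cell thus did not hold more. Acta2 was at 1941 and 2265 CPM (1.17), Cnn1 at 321.5 and 359.6 CPM (1.12) and Myl9 at 2720 and 2523 CPM (0.928). None was past 2-fold, against 2.27% of all genes. These values rest on 93 and 162 cells. In them, summed erythroid markers were at 5781 and 13000 CPM, compact ventricular at 4335 and 8364 CPM and white blood cell at 16.92 and 112.4 CPM. Mesenchymal markers were at 793.7 and 543.8 CPM and sinoatrial markers at 231.5 and 130.8 CPM. The part of these differences was not tested. The name overlaps with that of outflow tract-like cells, as both marker lists hold Rspo3. Summed outflow tract markers were at 1200 and 1012 CPM here and 1482 and 1083 CPM there. Summed atrioventricular canal markers were at 1901 and 1544 CPM here and 693.1 and 539.4 CPM there. A test of whether subsets differ in their ratio needs replicate libraries and was not made.

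**Figure D3:**
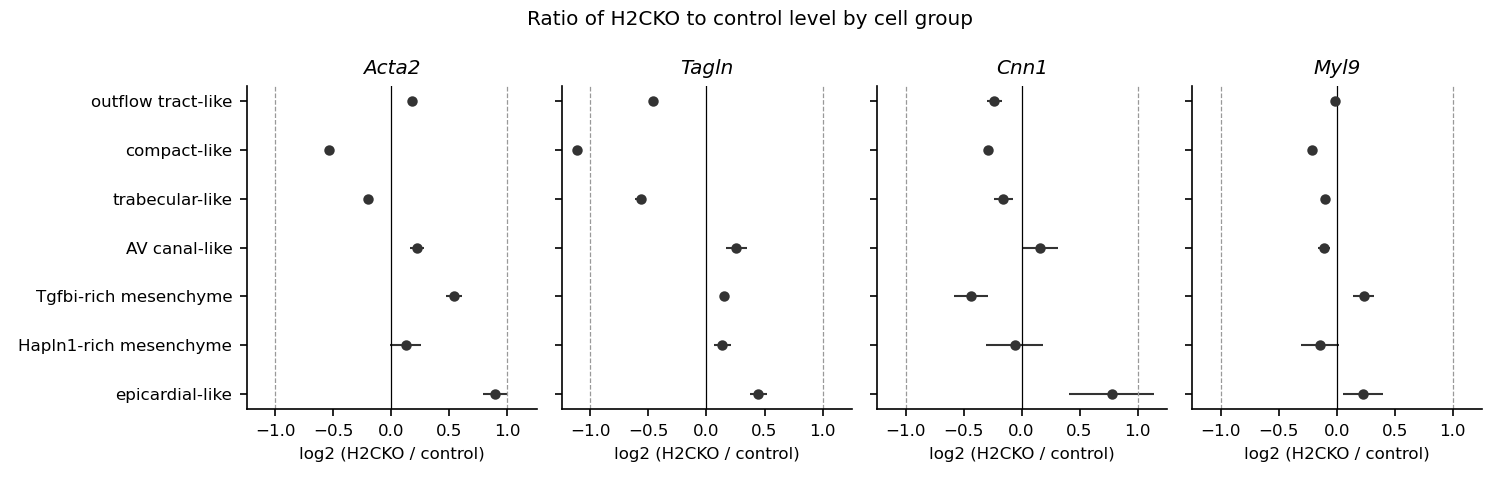
Ratio of H2CKO to control CPM, on a log2 scale with no value added to the CPM, for 4 genes in 7 cell groups, with 95% intervals from counting error; dashed lines mark 2-fold. Tagln in compact-like cells is the 1 point past a dashed line, Acta2 is left of 0 in compact- and trabecular-like cells and right of 0 in the other 5 groups, and Myl9 lies close to 0 in outflow tract-like cells.

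The mesenchyme of the cushions and outflow wall, part of which descends from the endocardium, showed no 2-fold difference in the 4 genes compared, against 2.61% of 6556 genes. Tagln was at 1016 and 1082 CPM in all mesenchymal-like cells, a ratio of 1.06 (1.04 to 1.09). Acta2 was at 271.9 and 356.7 CPM (1.31), Myl9 at 185.4 and 197.1 CPM (1.06) and Cnn1 at 94.0 and 71.7 CPM (0.762). The median log2 ratio of all genes was -0.18, so Acta2, Tagln and Myl9 lay above it and Cnn1 below. Summed mesenchymal markers in these cells were at 8621 and 4729 CPM, with none at 0. When cells were named by their own markers, the log2 ratio of Acta2 turned from 0.385 to -0.0108 and that of Myl9 from 0.0858 to -0.185. Relative to genes of like span, Tagln turned from 0.0893 to -0.0202 and Myl9 to -0.0288. Myl9 kept its sign in 14 of 18 alternatives, so no direction is read for it.

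Within the Tgfbi-rich part, Acta2 was at 468.8 CPM in the control and 682.4 CPM in H2CKO, a ratio of 1.46 (1.39 to 1.53). Cnn1 went the other way, from 167 to 123.4 CPM, but was level in the smallest of the 3 subclusters (137.1 and 138.7 CPM). Tagln was at 1855 and 2060 CPM and Myl9 at 310 and 364.6 CPM. Of all genes, 1.97% were past 2-fold there. Summed erythroid markers in these cells were at 4474 and 7085 CPM and summed mesenchymal markers at 8843 and 6036 CPM, and their part was not tested. In the 3 Tgfbi-rich subclusters Acta2 was at 529.6 and 744.3, 472 and 578.2, and 330.2 and 743.5 CPM, higher in H2CKO in each. Tagln was at 1960 and 2165, 1942 and 1867, and 1473 and 2191 CPM, so it was higher in 2 of the 3, most in the smallest (105 and 72 cells).

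In the Hapln1-rich part most H2CKO cells held a GFP UMI, and contractile levels were low in both libraries. GFP UMIs were seen in 18.8% of its control cells and 55.0% of its H2CKO cells, against 14.7% and 12.9% in the Tgfbi-rich part. Tagln was at 359.4 and 395.1 CPM, Acta2 at 117.8 and 128.3 CPM, Myl9 at 87.8 and 79.5 CPM and Cnn1 at 36.9 and 35.4 CPM; 5.06% of all genes were past 2-fold and none of these 4. Within H2CKO, Hapln1-rich cells with a GFP UMI had 375.6 CPM of Tagln (354.6 to 397.6) and those without one 419.6 CPM (394.7 to 445.7). Acta2 was at 115.9 and 143.7 CPM and Myl9 at 67.3 and 94.9 CPM in the same order. Cnn1 was at 37.0 and 33.4 CPM. The first 3 genes were lower with a GFP UMI, and Cnn1 was not. The control, which has no Cre, had the same directions, with Tagln at 329.6 and 368.7 CPM, Acta2 at 110.9 and 119.9 CPM, Myl9 at 83.3 and 89.2 CPM and Cnn1 at 39.2 and 36.2 CPM.

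Epicardial-like cells, the outer covering of the heart and a source of later vascular smooth muscle, had more of the 4 abundant genes, summed over the class, and less Mylk in H2CKO. Acta2 was at 175.1 and 326.1 CPM, a ratio of 1.86 (1.73 to 2.01) and rank 45 from the highest of 6378 genes. Tagln was at 466.9 and 635.8 CPM (1.36), Cnn1 at 16.9 and 29.0 CPM (1.72) and Myl9 at 98.8 and 115.8 CPM (1.17). Few H2CKO cells carried much of this: 5 of 294 cells held 24.8% of the Acta2 UMIs and 32.2% of the 90 Cnn1 UMIs, while in the control 5 of 828 cells held 14.7% and 10.8%. Mylk was at 51.1 and 24.2 CPM, a ratio of 0.473 (0.368 to 0.601). None of the 5 genes compared was past 2-fold on CPM plus 5, and 4.72% of all genes were. Summed erythroid markers were at 4002 and 7929 CPM in these cells, neuron at 30.95 and 68.71 CPM and platelet at 6.83 and 50.97 CPM. Lower in H2CKO were epicardial markers (2731 and 2096 CPM) and sinoatrial markers (350.9 and 188.4 CPM). Summed cardiomyocyte markers were at 3819 and 3765 CPM. The part of these differences was not tested. When cells were named by their own markers instead of by cluster, the Acta2 log2 ratio turned from 0.878 to -0.488, and Tagln, Cnn1 and Myl9 turned as well, to -0.174, -0.345 and -0.502.

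The epicardial-like class held 3 subclusters led by Upk3b, a marker of the mesothelial surface, and 2 rich in Tcf21. The mix differed between libraries: the Tcf21-rich subclusters held 167 of 828 control cells (20.2%) and 98 of 294 H2CKO cells (33.3%). Mylk was a transcript of the first kind, at 56.8, 67.7 and 58.0 CPM in the 3 control Upk3b-rich subclusters and 40.6, 37.6 and 29.1 CPM in H2CKO. In the Tcf21-rich subclusters it was at 18.4 and 16.6 CPM in the control, and a single UMI was left in each in H2CKO (1.86 and 1.74 CPM). Mylk was therefore lower in H2CKO in all 5, and 61.4% of all genes compared were lower in the whole class. Acta2 was highest in the Tcf21-rich subclusters of H2CKO, at 454.1 and 596.9 CPM, against 199.8 and 374.8 CPM in the control. In all 5 subclusters Acta2 was higher in H2CKO. Tagln was higher in 4, and Myl9 in 3, being nearly level in the 2 largest (118.9 and 116.8 CPM, 88.7 and 87.0 CPM). Cnn1 was higher in 5, but reached the minimums in 1.

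**Figure D4:**
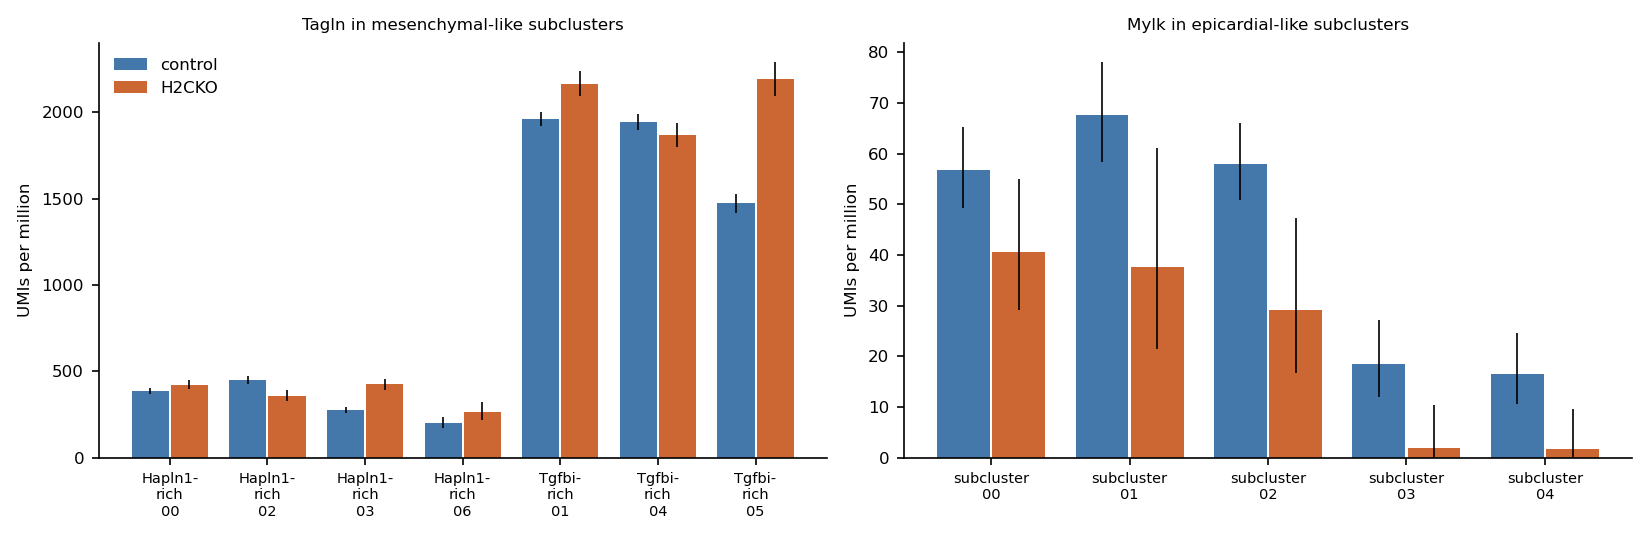
Left, Tagln (CPM) in the 7 mesenchymal-like subclusters, and right, Mylk in the 5 epicardial-like subclusters, for the control (blue) and H2CKO (orange); bars start at 0 and lines are 95% Poisson intervals. Tagln is high in all 3 Tgfbi-rich subclusters of both libraries, and Mylk is higher in subclusters 00 to 02 (Upk3b-rich) than in 03 and 04 (Tcf21-rich) and lower in H2CKO in each.

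Mylk spans 257211 bases, and span went with the ratio across the whole table. In epicardial-like cells the log2 ratio of a gene fell with its span (Spearman's rho -0.553 across 6374 genes, which are not independent replicates). The 511 genes of like span, within 2-fold of that of Mylk, had a median log2 ratio of -0.60, so Mylk's -0.94 lay -0.34 from them. Tagln, Myl9, Cnn1 and Acta2 are short genes, and their like-span medians in cardiomyocyte-like cells lay between -0.06 and 0.06. Against those medians Tagln in cardiomyocyte-like cells was at -0.96. The cause of the trend with span was not tested.

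Endothelial-like cells had low levels of all the genes, and 1 of the 3 compared was past 2-fold, against 7.31% of 6595 genes. Tagln was at 113.7 and 27.9 CPM, a ratio of 0.245 (0.211 to 0.285). Acta2 was at 121 and 63.8 CPM and Myl9 at 74.8 and 37.3 CPM, and Cnn1, under the minimum, at 17.6 and 7.63 CPM. These levels sat close to those of erythroid-like cells in H2CKO. In the control they were held by few cells: 8 of 390 cells carried 50% of the 748 Tagln UMIs, while 53 of 699 did in H2CKO. Summed mesenchymal markers in the same cells were at 2920 and 927 CPM, with none of 12 at 0 in either library. Cardiomyocyte (2371 and 1549 CPM), neuron (552 and 218.3), epicardial (101.8 and 24.93) and mural (60.19 and 18.37) markers were also lower. Endothelial (3769 and 4115 CPM) and erythroid (8690 and 11110) markers were higher. The mix of subclusters differed too, with 128 and 118 cells in the largest and 45 and 186 in the next. The part of these differences was not tested. Clustering at a Leiden resolution of 2 gave a Tagln log2 ratio of -0.147 in place of -1.85 and turned Acta2 from -0.873 to 0.267. The stricter cell filter gave -0.0291 for Myl9 in place of -0.914. The endothelial values thus depended on where the class was drawn.

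A small unnamed cluster among the cardiomyocyte subclusters (40 and 71 cells) was led by Iigp1, Rgs5, Eln, Mgp and Fbln5, with Isl1 and Bmp4 also among its top 10 genes, and was chosen for description after its values were seen. Its summed outflow tract markers were at 2067 and 2129 CPM, against 1482 and 1083 CPM in outflow tract-like cardiomyocytes, and its summed mural markers at 725.1 and 760.5 CPM, against 70.8 and 47.1 CPM, with 3 of the 8 mural markers at 0 in each library. Rgs5, a pericyte and mural gene, was at 560.5 and 663.7 CPM in it, and Tnnt2, cardiac troponin T, at 816.2 and 656.8 CPM against 5986 and 5458 CPM in outflow tract-like cells. Acta2 was at 241.7 and 967.9 CPM there, a ratio of 4.0 (3.10 to 5.24). Tagln was at 427.4 and 1440 CPM, a ratio of 3.37 (2.77 to 4.13), and Myl9 at 196.2 and 442.5 CPM, a ratio of 2.26 (1.67 to 3.10). Cnn1, at 66.6 and 71.4 CPM, had an interval that includes 1. Of the 3484 genes compared in this cluster, 16.2% were past 2-fold, more than in any other group given here, and 3 of the 4 member genes compared. No Myh11 UMI was found in it, which allows a level of up to 10.5 CPM in the control and 6.91 CPM in H2CKO at 3 counts of the total. Other summed markers were lower in H2CKO in this cluster: mesenchymal (4932 and 2178 CPM), endothelial (697.1 and 318), pharyngeal mesoderm (311.8 and 131.4), sinoatrial (290.8 and 117.5) and neuron (283.8 and 145.2). Their part was not tested. With fewer than 50 control cells it was not ranked among the control groups.

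The regulators of smooth muscle genes were low in abundance. The list held 8 symbols, 6 of them in the matrices. Mkl1 and Mkl2 on it are older symbols of Mrtfa and Mrtfb, which it also holds. Myocd and Srf reached the minimums in cardiomyocyte-like cells. Myocd, which encodes myocardin, was at 75.03 and 45.56 CPM, a ratio of 0.607 (0.580 to 0.636). It was lower in H2CKO in the 8 subclusters with a subset name and at least 30 cells in each library. Its log2 ratios there ran from -1.02 to -0.44, and most genes were lower in those cells, as given above. It was higher in the shallow subcluster (14.2 and 30.4 CPM, log2 ratio 0.89). In outflow tract-like cells it was at 88.7 and 47.1 CPM. Myocd spans 93429 bases, and genes of like span had a median log2 ratio of -0.36, from which its -0.66 lay -0.31. Srf, serum response factor, was at 31.7 and 24.4 CPM. In mesenchymal-like cells Myocd was at 5.49 and 2.28 CPM, under the minimum.

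Other smooth muscle contractile and cytoskeletal genes were described from a list of 19. In cardiomyocyte-like cells 14 were compared, none was past 2-fold, and their median log2 ratio was -0.34, against -0.15 for all genes. Cald1, caldesmon, an actin-binding inhibitor of myosin, was at 150 and 95.3 CPM. Des, the muscle intermediate filament desmin, was at 815.2 and 852.4 CPM, and Smtn, smoothelin, was under the minimum at 17.1 and 16.9 CPM. In mesenchymal-like cells 15 were compared and 1 was past 2-fold: Sorbs2, a cytoskeletal adaptor, at 71.2 and 27.8 CPM, where 2.61% of all genes were. There Cald1 was at 386.8 and 268.6 CPM, Smtn at 26.4 and 16.9 CPM and Des at 25.9 and 33.0 CPM.

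Genes for myosin light chain phosphorylation, the enzymes that act with Mylk, numbered 13, of which 10 were compared in cardiomyocyte-like cells. None was past 2-fold, and their median log2 ratio was -0.27. Mylk3, the cardiac light chain kinase, was at 113.9 and 151 CPM in the 2 libraries, and its level was far above the 2.25 and 1.10 CPM of Mylk. In mesenchymal-like cells 9 were compared, none past 2-fold, with a median of -0.13.

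The sarcomere counterparts of the 6 genes numbered 8, and all were compared in cardiomyocyte-like cells. Their median log2 ratio was 0.10, and 3 were below 0, against 65.9% of all genes. Past 2-fold was 1, Myh6, the alpha myosin heavy chain, at 1288 and 582.9 CPM, against 0.716% of all genes. Cardiac actin, Actc1, was at 14730 and 14520 CPM, skeletal actin, Acta1, at 654.2 and 795.7 CPM, and the light chain Myl7 at 8187 and 8039 CPM. Acta2 was thus lower in H2CKO where Actc1 was nearly level and Acta1 higher. Myh6 was also the 1 gene of this list past 2-fold in mesenchymal-like cells (2.61% of all genes), at 29.5 and 7.65 CPM, where Actc1 was at 492.1 and 629.2 CPM, Acta1 at 20.4 and 29.1 CPM and Myl7 at 190.9 and 211.4 CPM. Erythroid-like cells, the measure of free RNA, had 22.4 and 4.50 CPM of Myh6, 278.9 and 312.3 CPM of Actc1, 16.74 and 19.96 CPM of Acta1 and 144 and 154.6 CPM of Myl7.

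Non-muscle counterparts, 11 genes of the general cytoskeleton, had a median log2 ratio of -0.36 in cardiomyocyte-like cells with none past 2-fold. The non-muscle light chains Myl12a and Myl12b were at 484.3 and 487.2 CPM and at 73.7 and 55.7 CPM. In mesenchymal-like cells 10 were compared, none past 2-fold, with a median of 0.03. There, Myl12a was at 841.7 and 867.7 CPM and Myl12b at 189.4 and 230.1 CPM. Of 8 mural markers, 2 were compared in cardiomyocyte-like and 2 in mesenchymal-like cells, and none was past 2-fold.

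**Figure D5:**
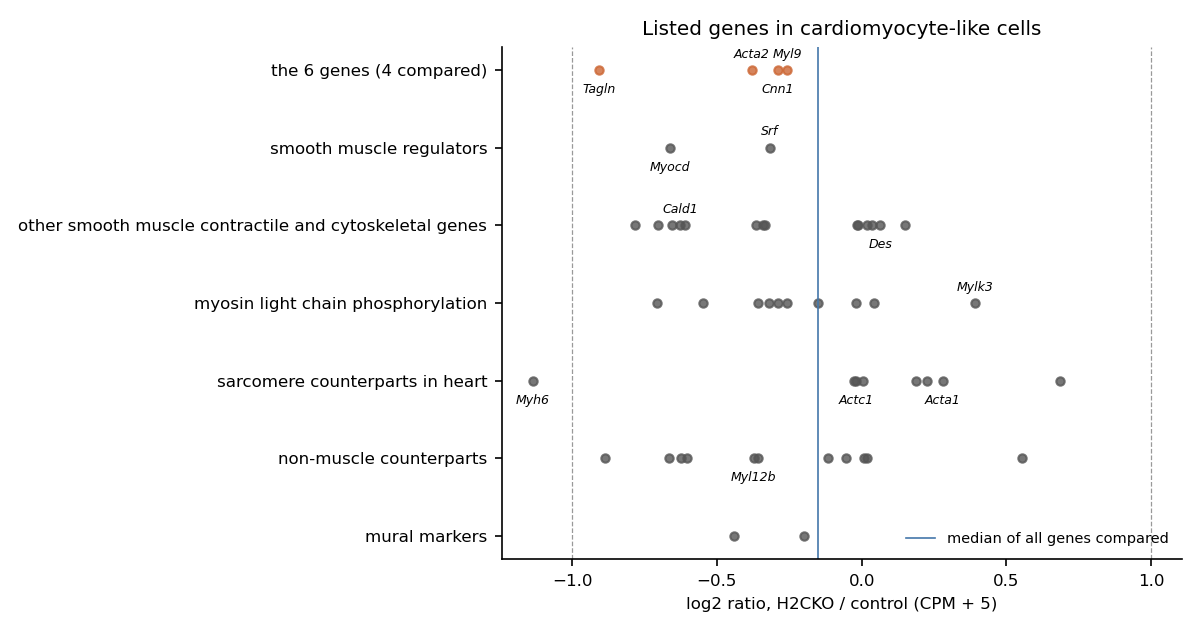
Log2 ratio of H2CKO to control CPM plus 5 for each gene compared in cardiomyocyte-like cells, by list; each point is 1 gene, the blue line is the median of all genes compared (-0.15) and dashed lines mark 2-fold. The 4 smooth muscle genes lie left of the blue line with Tagln farthest left, and most sarcomere counterparts lie right of it, except Myh6 at -1.14.

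Profiles were compared across the 14 cell groups with at least 50 cells in both libraries (28 points, library means removed). Levels of Acta2, Cnn1 and Myl9 were closely correlated there. The groups leave out atrial-like cells, where control Myl9 was highest, and include mixed and unnamed subclusters. They span cardiomyocytes and cells with far lower levels, so r says little about the order among cardiomyocyte subsets, which differed for Myl9. Pearson's r of log2(CPM + 5) was 0.985 for Acta2 with Myl9, 0.976 for Cnn1 with Myl9 and 0.974 for Acta2 with Cnn1. Tagln was further off, at 0.844 with Acta2 and 0.79 with Myl9. Mylk ran between -0.31 and -0.07 with the 4 others. The points share libraries and depth, and r is given as a description with no p.

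Among 8992 genes, those most like Acta2 were Ankrd1 (r 0.969), Hcfc1r1 (0.963) and Ptges3l (0.959). For Myl9 they were Ankrd1 (0.987), Actc1 (0.972) and Rrad (0.971), and for Cnn1 they were Ptges3l (0.968), Fabp3 (0.963) and Ankrd1 (0.956). The nearest to Tagln were Khdrbs3 (0.938), Tnfrsf12a (0.928) and Ak1 (0.922), none of them shared with the other 3 genes. Mylk was nearest to Cd82 (0.90), B3gnt7 (0.896) and Lrrn4 (0.89), the last a marker of epicardium. The 3 nearest to Myh11 (Npnt, Synm and Kazn) reached at most 0.471, over values of no more than 0.827 CPM.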

How the data were processed

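UMI counts of 2 single-cell libraries of whole E11.5 hearts, deposited by the authors as raw counts per Ensembl gene ID and barcode, were analysed. Per the submitters' processing notes, Cell Ranger 5.0.1 and Seurat 4 were used on GRCm38.p6, with no roles given. The authors also deposited embedding coordinates, a score without unit, used here only to mark cells (5408 and 6232) for an alternative. All barcodes held at least 500 UMIs. Of 22401 features, 22285 matched a symbol.

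A cell was kept with 500 genes or more and 10% mitochondrial UMIs or less, and the 6% with the highest Scrublet scores in each library (548 and 675 cells) were left out as doublets (scanpy 1.11.5). The 2000 most variable genes, without the 6 genes and the related lists, gave 30 principal components. Each cell was joined to 15 neighbours per library, and Leiden clustering (leidenalg 0.10.2, resolution 1) gave 14 clusters and 39 subclusters. Names needed a median log2 marker fold of at least 0.25 and at least 3 markers in at least 10% of cells. The 7 subclusters with markers of a second class (494 and 427 cells) and 3 unnamed ones stayed out of the classes. Shallow subclusters got no subset name. A shallow subcluster with no marker of its class among its 10 top genes got no class name.

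For each group, the summed UMIs of a gene were scaled to the group's total UMIs (CPM). The log2 ratio used CPM plus 5. The share called past 2-fold was taken over all genes with at least 20 CPM and 20 UMIs. Intervals used scipy 1.17.1. The calculation was tested on simulated data. By rule the 6 genes are named in every group (Mylk and Myh11, where nearly absent, in passages of their own), as are listed genes past 2-fold in cardiomyocyte- or mesenchymal-like cells, 11 fixed genes whatever their value, and the 3 genes of most similar profile. The genes and lists were chosen with earlier results of these data known. In all, 14 planned and 4 later alternatives were run.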

Additional observations from a re-analysis of the deposited data

Results flagged for a closer look

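Several genes had log2 ratios (H2CKO over control, CPM plus 5) of opposite sign in different cell groups. With 1 library per group, the differences between groups were not tested.

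Among cardiomyocyte subsets, Acta2 was at -0.537 in compact and -0.199 in trabecular cells but 0.176 in outflow tract-like and 0.222 in atrioventricular canal-like cells. Tagln was at -1.11, -0.564 and -0.463 in compact, trabecular and outflow tract-like cells and 0.256 in atrioventricular canal-like cells. Cnn1 was at -0.281, -0.156 and -0.231 in the same 3 subsets and 0.159 in atrioventricular canal-like cells.

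Among the 4 classes, Acta2 was at -0.379 in the cardiomyocyte-like class, -0.873 in the endothelial-like class, 0.385 in the mesenchymal-like class and 0.878 in the epicardial-like class. Tagln was at -0.907 and -1.85 in the first pair and 0.0893 and 0.442 in the second. Myl9 was at -0.256 and -0.914, and at 0.0858 and 0.219. Cnn1 was at -0.29 in cardiomyocyte-like, -0.369 in mesenchymal-like and 0.635 in epicardial-like cells.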

How the results depend on the processing

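No paired analysis was possible because each genotype has 1 library, and no replicate could be left out. The count of genes past 2-fold was 0 in mesenchymal-like cells under all 18 alternatives. In cardiomyocyte-like cells it was 0 except for 1 (Tagln) with cells named by their own markers. In endothelial-like cells it was 1, and it became 0 at Leiden resolutions of 0.5 and 2, with the stricter cell filter, with cells named by their own markers and with the listed genes kept in the clustering, 2 on the cells of the deposited embedding and 3 with the erythroid-like level taken off. In epicardial-like cells it was 0, and it became 1 when centred on the median gene, thinned, with a pseudocount of 1 CPM or with mixed subclusters kept, and 2 with the erythroid-like level taken off. Of 544 log2 ratios recomputed for 32 results under 18 settings, 373 stayed within the counting interval of the first value and 171 moved outside it. Tagln in compact cells was past 2-fold in 14 of 16 alternatives, from -1.18 to -0.865. Tagln in atrioventricular canal-like cells ran from 0.0802 to 0.404 and in trabecular cells from -0.943 to -0.433. Acta2 stayed negative in compact cells (-0.69 to -0.367) and positive in outflow tract-like cells (0.145 to 0.491), while in endothelial-like cells it ran from -2.19 to 0.267. Centring on genes of like span, leaving out shallow cells, keeping mixed subclusters and leaving out the mostly H2CKO subcluster were chosen after seeing the data. The causes of these shifts were not tested. Depth limits Mylk outside epicardial-like cells and Myh11 everywhere.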
